A study of Mus musculus with 6 samples.

Results

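The genes of the MEF2 transcription factors (Mef2a, Mef2b, Mef2c and Mef2d) and of the class IIa histone deacetylases (Hdac4, Hdac5, Hdac7 and Hdac9) were followed in depolarized mouse cortical neurons. The 8 genes were taken by symbol from the 43432 genes listed. All samples were wild-type C57BL/6 cortical cells of pooled male and female embryos at E16.5, grown in vitro for 7 days. Every culture, the 0 h controls included, had been silenced overnight with 1 µM tetrodotoxin, a sodium channel blocker, and 100 µM DL-AP5, an NMDA receptor blocker. Cells were then held in 55 mM KCl, which depolarizes the membrane and lets calcium in, for 0 h, 2 h or 6 h, with 2 libraries of poly(A) RNA per time point that the labels call biological duplicates. As nothing more is said of their origin, p-values measure the spread between these libraries. Of the 8 genes, 7 were tested, and Mef2b was at or under 3 counts in every library.

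MEF2 factors are DNA-binding proteins that recognise an A/T-rich element and switch genes on or off depending on the partners they hold. Class IIa HDACs have weak deacetylase activity of their own and act largely as adaptors, binding MEF2 on DNA and bringing in repressor complexes. In neurons, calcium entry is known to act on both sides of this pair at the protein level. Calcium-dependent kinases phosphorylate class IIa HDACs, which are then held by 14-3-3 proteins and leave the nucleus, while the phosphatase calcineurin activates MEF2. These libraries measure the transcripts and not the proteins, their phosphorylation or their location.

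The transcripts of 4 of the 8 genes rose between 0 h and 6 h of depolarization, where 23.7% of all genes tested rose and 21.7% fell, and none of the 8 passed the test in the other direction. Hdac9 was 5.85 times higher at 6 h than at 0 h, Hdac4 2.16 times, Hdac5 2.08 times and Mef2d 1.78 times. Hdac5 and Mef2d had already risen at 2 h, whereas at 2 h the Hdac4 libraries overlapped with those at 0 h and the Hdac9 libraries lay below them. The changes of Mef2a, Mef2c and Hdac7 did not pass the test in any comparison. In bulk RNA, a change in the number of cells of a type and a change in RNA per cell cannot be told apart.

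**Figure D1:**
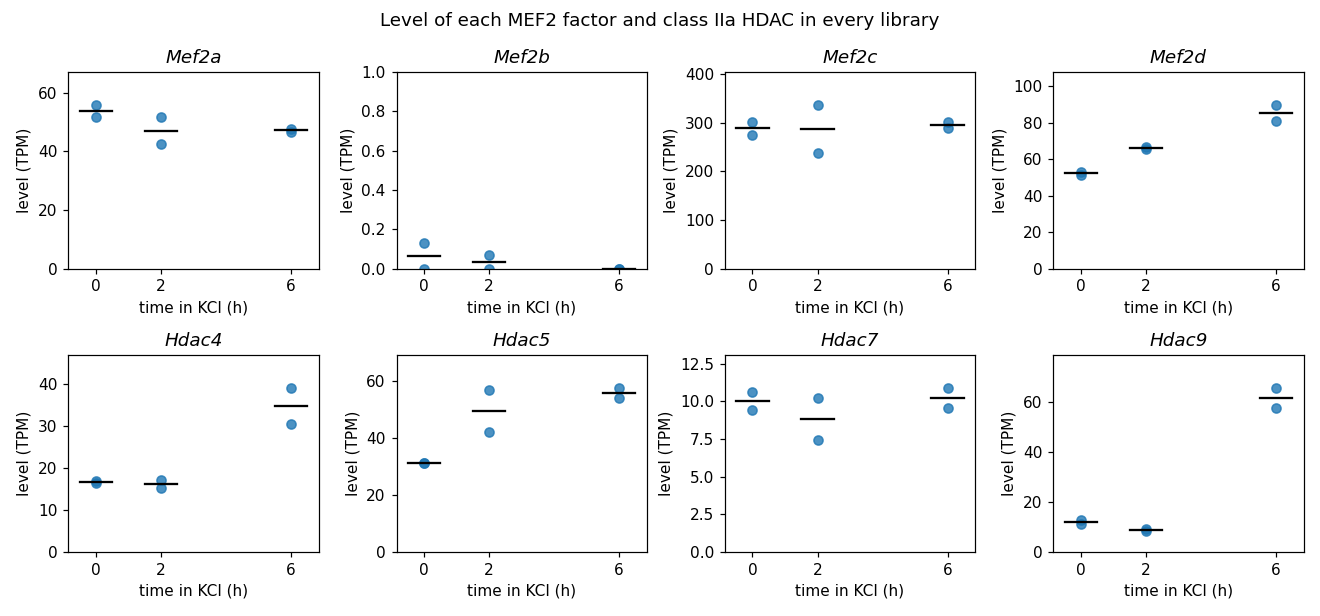
Level in TPM, the deposited length-corrected unit (transcripts out of a fixed total), of each gene in every library against hours in KCl, 1 panel a gene, each with its own axis from 0. Points are the 2 libraries of a time point and bars their mean. Hdac9 went from 11.3 and 12.6 TPM at 0 h to 57.6 and 65.5 TPM at 6 h, while Mef2c stayed between 238 and 337 TPM.

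Sequence before the start site is shown for the 4 genes that rose, since these moved in the same direction. The 250 bases upstream of the start were read from the RefSeq promoter table of build GRCm38.p6, and capitals mark the motifs searched. The table held 14 promoter windows for the 8 genes, and for Hdac9 the window nearest to the start of the counted transcript is given.
Mef2d promoter, chr3:88142122-88142371, plus strand: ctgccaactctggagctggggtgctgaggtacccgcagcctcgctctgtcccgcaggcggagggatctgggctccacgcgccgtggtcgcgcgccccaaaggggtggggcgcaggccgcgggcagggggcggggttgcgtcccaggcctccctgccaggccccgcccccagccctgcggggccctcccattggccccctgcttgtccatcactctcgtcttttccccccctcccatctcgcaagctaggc
Hdac4 promoter, chr1:92180342-92180591, minus strand: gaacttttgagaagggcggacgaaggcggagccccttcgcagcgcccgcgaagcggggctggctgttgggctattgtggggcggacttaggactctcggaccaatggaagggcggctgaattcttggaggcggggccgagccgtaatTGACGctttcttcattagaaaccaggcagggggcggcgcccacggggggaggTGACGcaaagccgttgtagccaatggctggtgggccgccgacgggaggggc
Hdac5 promoter, chr11:102230173-102230422, minus strand: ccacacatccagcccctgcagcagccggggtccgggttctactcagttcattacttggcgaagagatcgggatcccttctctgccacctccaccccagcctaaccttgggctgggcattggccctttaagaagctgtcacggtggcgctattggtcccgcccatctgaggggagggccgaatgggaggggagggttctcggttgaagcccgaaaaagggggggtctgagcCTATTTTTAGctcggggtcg
Hdac9 promoter, chr12:34528890-34529139, minus strand: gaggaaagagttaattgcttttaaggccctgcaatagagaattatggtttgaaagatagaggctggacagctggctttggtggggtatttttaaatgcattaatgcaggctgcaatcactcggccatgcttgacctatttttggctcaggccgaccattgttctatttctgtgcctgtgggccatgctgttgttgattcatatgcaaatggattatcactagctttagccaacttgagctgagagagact

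The motifs were searched on both strands in windows of 300 bases, from 250 before to 50 after the start. They were the MEF2 consensus (the A/T-rich element), the CArG box bound by SRF, the cAMP response element TGACGTCA, its shorter form TGACG, which lies within it, and the AP-1 site TGACTCA. The MEF2 consensus was found in windows of 2 genes, Hdac5 and Mef2a. In Hdac5 it is the run CTATTTTTAG whose first base is at -20 from the start, and in Mef2a it is CTAAAAATAG at -2. Of all 32851 windows in the table, 3.19% hold this motif, and 3.70% of all 27025 genes have such a window. TGACG was found in Hdac4, at -103, -51 and 15, and in Hdac5, at 8 and 17, beside 20.8% of all windows. TGACTCA was found in a window of Hdac7 at 23, on the opposite strand, beside 5.20% of all windows and 5.95% of all genes. The full TGACGTCA (1.79% of all windows) and the CArG box (1.63%) were in none of the 14. These are matches of letters and were not tested for binding, and in the Mef2d window and the Hdac9 windows none of the 5 motifs was found.

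The cells were checked against markers before the genes were compared. All 8 neuronal markers were above 1 TPM, and their summed level was 6009 to 6142 TPM at 0 h, 5527 to 5803 TPM at 2 h and 5591 to 5735 TPM at 6 h. The lower sum rested on Tubb3, at 1639 to 1679 TPM at 0 h, 834 to 989 TPM at 2 h and 666 to 794 TPM at 6 h, and the sum of the other 7 was 4330 to 4503, 4538 to 4969 and 4925 to 4941 TPM. Astrocyte markers, 8 of 8 above 1 TPM, summed to 836 to 906, 787 to 822 and 604 to 632 TPM at the same times. Interneuron markers, also 8 of 8, summed to 630 to 689, 804 to 937 and 1084 to 1090 TPM, and excitatory neuron markers, 8 of 8, to 472 to 477, 519 to 557 and 636 to 653 TPM. Without Neurod6 the excitatory sum was 208 to 213, 188 to 198 and 259 to 261 TPM. Oligodendrocyte lineage markers (8 of 8) summed to 129 to 152, 98.9 to 116 and 124 to 134 TPM, and markers of dividing progenitors (7 of 8) to 180 to 188, 176 to 196 and 137 to 154 TPM. Only 2 of 8 microglial markers and 1 of 8 endothelial and pericyte markers reached 1 TPM, with sums of at most 7.07 and 3.45 TPM in any library. No marker was at 0 in all libraries, and the defining endothelial genes Pecam1, Cdh5 and Kdr and microglial genes Cx3cr1, P2ry12 and Tmem119 were all under 1 TPM on average. The part of these shifts in the changes below was not tested. Libraries held 25959298 to 28573067 expected counts, and the 2 h libraries differed most between replicates: the log2 ratio of the 2 replicates had an SD across 12290 genes of 0.429, against 0.246 in the 0 h pair and 0.214 in the 6 h pair. This ratio ran with the GC content of the genes (Spearman's rho across genes, which are not independent, of -0.705 at 2 h).

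Mef2c was the most abundant of the 8 genes at each time point. It encodes the MEF2 factor best known in cortical excitatory neurons and lies on chr13:83504034-83667080 (ENSMUSG00000005583). Its normalized counts (counts divided by a size factor for each library) were 21282 and 19018 at 0 h, then 28047 and 18283 at 2 h, and in the end 23658 and 23976 at 6 h. The 2 h libraries enclosed those of both other time points, while both 6 h libraries lay above the 0 h libraries. The log2 fold change from 0 h to 6 h was 0.24 (SE 0.20, DESeq2 adjusted p 0.347), with a 95% interval of -0.16 to 0.64. When the 2 h libraries took no part in the fit, the estimate was 0.23 and its adjusted p 3.09e-04. With library totals as size factors the estimate was -0.00 (DESeq2 adjusted p 0.989), and with a correction for GC content 0.12 (DESeq2 adjusted p 0.456). From TPM with limma it was 0.04 (adjusted p 0.927). In TPM the 6 h libraries, at 290 and 301, overlapped with those at 0 h, at 302 and 275. At 2 h the change from 0 h was 0.20 (SE 0.20, adjusted p 0.541), and it was 0.46 without the second 2 h library and -0.15 without the first.

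Mef2d rose at both steps. It encodes a MEF2 factor expressed widely in the brain (ENSMUSG00000001419, chr3:88142372-88172086). Its normalized counts were 3166 and 3089 at 0 h, then 4416 and 4463 at 2 h, and in the end 5493 and 5619 at 6 h. The libraries of the 3 time points did not overlap, and those at 2 h lay between the others. The log2 fold change was 0.51 at 2 h against 0 h (SE 0.09, DESeq2 adjusted p 7.74e-07), 0.83 at 6 h against 0 h (SE 0.09, adjusted p 7.83e-18) and 0.32 at 6 h against 2 h (SE 0.09, adjusted p 0.00157). None exceeded the 2-fold criterion of the study. The estimate of the last step changed little with the libraries in the fit, but its adjusted p did: with the 2 h and 6 h libraries alone it was 0.32 with an adjusted p of 0.0607, and without the second 6 h library 0.31 with 0.173. With a correction for GC content it was 0.48 with an adjusted p of 6.07e-06. Expected counts of Mef2d were not whole in 5 of 6 libraries, so some of its reads were shared with other genes, and an exon of 1700113A16Rik overlaps it on the other strand.

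Mef2a, a further widely expressed MEF2 factor (ENSMUSG00000030557, chr7:67231163-67372858), had 3078 and 2863 normalized counts at 0 h, then 3734 and 2459 at 2 h, and in the end 3103 and 3112 at 6 h. Again the 2 h libraries enclosed all the others. The log2 fold change from 0 h to 6 h was 0.07 (95% interval -0.33 to 0.46, adjusted p 0.825), and from 0 h to 2 h 0.06 (-0.33 to 0.45, adjusted p 0.884). The direction at 2 h depended on the library: it was 0.31 without the second 2 h library (adjusted p 0.00495) and -0.28 without the first (adjusted p 0.0138).

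Mef2b, the family member known best from B cells (ENSMUSG00000079033, chr8:70139711-70167488), had 0 and 2 expected counts in the 0 h libraries, 1 and 0 in the 2 h libraries and 0 in both 6 h libraries. All are under the 3 counts taken as the floor, so no fold is given and the gene was not detectable above this level at this depth. It shares exons with Borcs8 on the same strand, so even these counts are uncertain.

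Hdac9 showed the largest change of the 8 genes. Hdac9, on chr12:34047580-34917095 (ENSMUSG00000004698), is itself described as a target of MEF2 in muscle. Its normalized counts were 734 and 655 at 0 h, then 616 and 534 at 2 h, and in the end 3837 and 4288 at 6 h. Both 6 h libraries lay far above the other 4, and both 2 h libraries lay below those at 0 h. The log2 fold change was 2.55 at 6 h against 0 h (SE 0.14, DESeq2 adjusted p 1.74e-67) and 2.82 at 6 h against 2 h (SE 0.15, adjusted p 4.22e-80). At 2 h against 0 h it was -0.27 (95% interval -0.56 to 0.02, adjusted p 0.183). With library totals as size factors this value was -0.44 and its adjusted p 0.0111, and without the first 2 h library it was -0.39 with an adjusted p of 0.0139.

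The tables held a single Hdac9 transcript, ENSMUST00000110819, on chr12:34371497-34528874, 4413 bases long with 588 coding codons. GENCODE M21 lists 10 transcripts of the gene, and the longest coding part among them has 1067 codons. The short form is known from other work to end before the deacetylase domain. The counts are therefore of reads compatible with this model, reads from exons shared with longer forms can be among them, and the forms cannot be told apart. The same limit holds for Mef2c, with 3 transcripts in the tables of 31 in GENCODE M21, whereas for Hdac5 all 20 were in the tables.

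Hdac4 rose between 2 h and 6 h. Hdac4 (ENSMUSG00000026313, chr1:91928779-92195699) encodes a class IIa HDAC that is largely cytoplasmic in neurons. Its normalized counts were 1079 and 1145 at 0 h, then 1141 and 1020 at 2 h, and in the end 2394 and 2404 at 6 h. The 0 h and 2 h libraries overlapped, and both 6 h libraries were above them. The log2 fold change was 1.11 at 6 h against 0 h (SE 0.12, DESeq2 adjusted p 1.99e-18) and 1.15 at 6 h against 2 h (SE 0.12, adjusted p 2.17e-19). With library totals as size factors the value at 6 h against 0 h was 0.86 (adjusted p 4.69e-11), under the 2-fold criterion. At 2 h against 0 h it was -0.04 (95% interval -0.28 to 0.20, adjusted p 0.871).

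Hdac5 rose within 2 h. Hdac5 (ENSMUSG00000008855, chr11:102194432-102230166) encodes a class IIa HDAC known for leaving the nucleus when neurons are active. Its normalized counts were 1240 and 1232 at 0 h, then 1778 and 2321 at 2 h, and in the end 2399 and 2746 at 6 h. The libraries of the 3 time points did not overlap, and the 2 h libraries were the furthest apart. The log2 fold change was 0.73 at 2 h against 0 h (SE 0.17, DESeq2 adjusted p 1.43e-04) and 1.06 at 6 h against 0 h (SE 0.17, adjusted p 2.94e-09). From TPM with limma the change at 2 h was 0.63 with an adjusted p of 0.0553. The step from 2 h to 6 h was 0.33 (95% interval -0.00 to 0.66, adjusted p 0.0990), and with a correction for GC content it was 0.53 with an adjusted p of 1.30e-07. It was 0.55 without the second 2 h library (adjusted p 3.03e-05) and 0.16 without the first (adjusted p 0.274). Hdac5 has a GC content of 60.1%. Its call at 6 h stands at the edge of the 2-fold criterion: the estimate was 0.81 with library totals as size factors, 0.82 from TPM with limma and 0.96 without the second 6 h library, each with an adjusted p under 0.05.

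Hdac7 (ENSMUSG00000022475, chr15:97792664-97844502), known best from endothelial cells and thymocytes, was low. It had 257.4 and 237.6 normalized counts at 0 h, then 206.7 and 312.2 at 2 h, and in the end 278.2 and 247.4 at 6 h. The libraries of all time points overlapped. Its log2 fold change from 0 h to 6 h was 0.09 (95% interval -0.41 to 0.58, adjusted p 0.817) and from 0 h to 2 h 0.07 (-0.43 to 0.56, adjusted p 0.900). An exon of Slc48a1 overlaps Hdac7 on the other strand, and an exon of Lysmd4 overlaps Mef2a likewise.

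**Figure D2:**
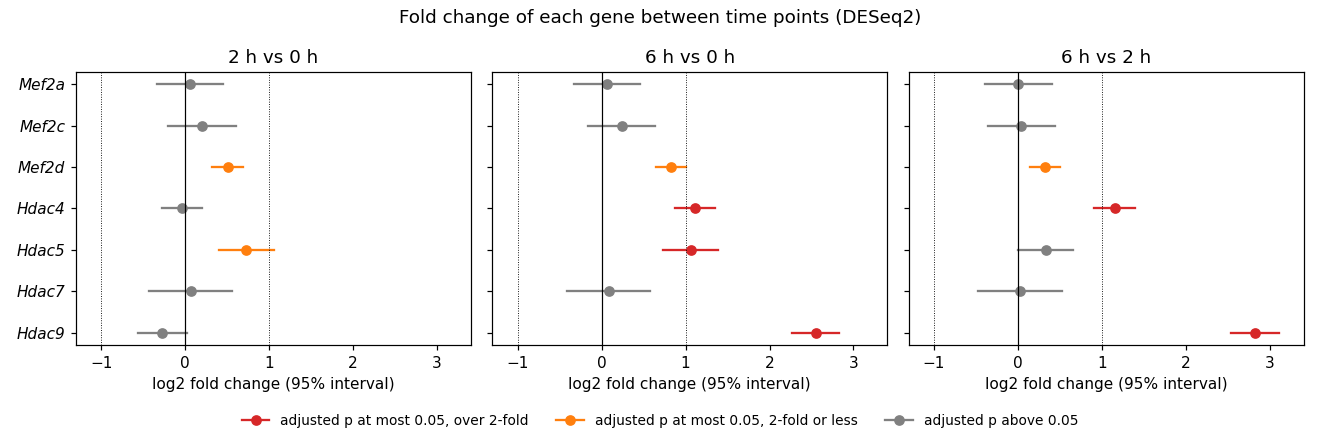
Log2 fold change with its 95% interval (DESeq2) of the 7 genes tested, in 1 panel a comparison. Dotted lines mark a fold of 2, and colours mark the adjusted p and the fold. At 6 h against 0 h Hdac4, Hdac5 and Hdac9 lie beyond 2-fold and Mef2d at 0.83.

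By the criteria of the study (adjusted p at most 0.05 and a fold above 2), 0 of the 7 genes tested were called at 2 h against 0 h, where 3.62% of all genes tested were called higher and 5.94% lower. Without the fold criterion, 2 of 7 (Hdac5 and Mef2d) were higher, beside 12.3% of all genes, and 0 were lower, beside 14.2%. At 6 h against 0 h, 3 of 7 were called higher, beside 9.10%, and 0 lower, beside 10.2%. Without the fold criterion these were 4 of 7, beside 23.7%, and 0 of 7, beside 21.7%. At 6 h against 2 h, 2 of 7 (Hdac4 and Hdac9) were called higher, beside 10.1%, and 0 lower, beside 8.02%. Without the fold criterion 3 of 7 were higher, beside 24.1%, and 0 lower, beside 21.2%. These counts without the fold criterion moved when a 2 h library was left out. Shares of all genes in those fits are not given, so the moves cannot be called particular to these genes. At 2 h against 0 h the count in both directions was 4 without the first 2 h library, with Mef2a (-0.28) and Hdac9 (-0.39) lower, and 4 without the second, with Mef2a (0.31) and Mef2c (0.46) higher. At 6 h against 2 h it was 5, all higher, without the first, and 6 without the second, with Mef2a (-0.25) and Mef2c (-0.22) lower. With library totals as size factors, 1 gene (Hdac9) was called at 6 h against 0 h, and at 2 h against 0 h 3 genes passed without the fold criterion, Hdac9 among them as lower (-0.44). With so few genes these counts are a description. The median log2 fold change of the 4 class IIa HDACs was 0.01, 1.08 and 0.74 in the 3 comparisons in this order, and that of the 3 tested MEF2 factors was 0.20, 0.24 and 0.04. The median of all genes tested was 0.02, 0.00 and -0.01.

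**Figure D3:**
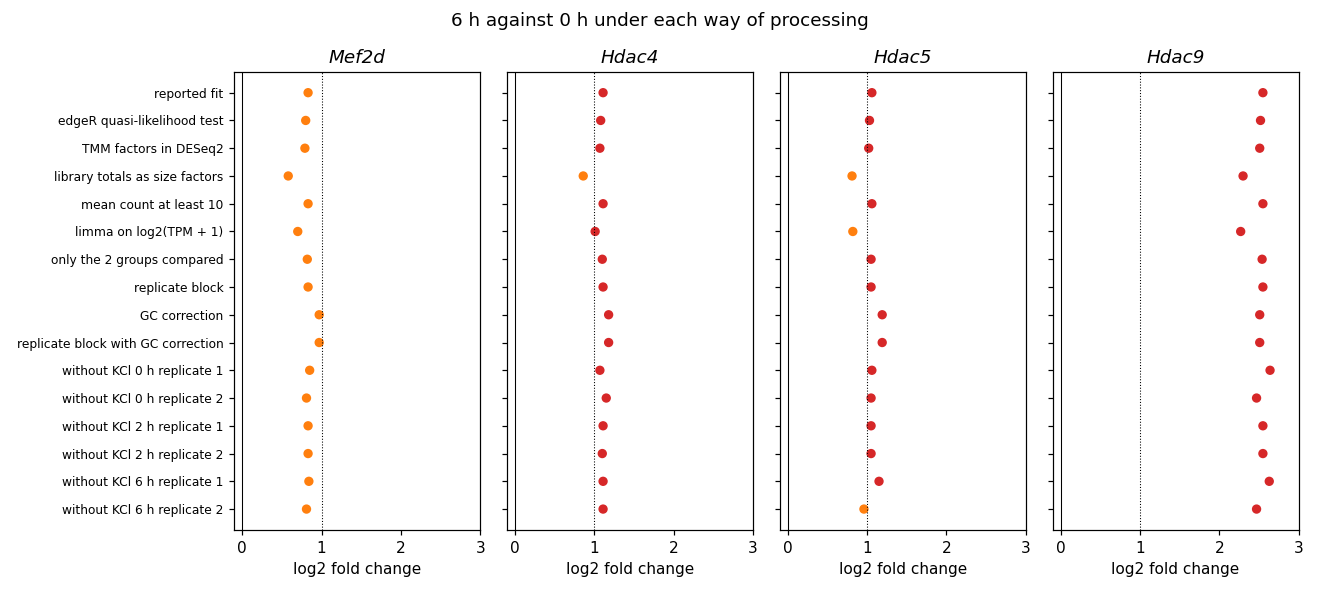
Log2 fold change at 6 h against 0 h of the 4 genes that rose (horizontal axis) under the reported fit and each alternative (vertical axis). Red is an adjusted p at most 0.05 and over 2-fold, orange the same p at 2-fold or less. Hdac9 stays beyond 2-fold throughout, and Hdac4 and Hdac5 move to either side of it.

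To compare genes with each other, TPM was used, which corrects for transcript length. At 0 h the order of mean levels was Mef2c (289 TPM), Mef2a (53.8), Mef2d (52.2), Hdac5 (31.2), Hdac4 (16.6), Hdac9 (11.9), Hdac7 (10.0) and Mef2b (0.0650). The libraries of Mef2a and Mef2d overlapped, while those of all other neighbours in this order did not. At 2 h Mef2d (66.2 TPM) was second, and Hdac5 (49.5 TPM) overlapped with Mef2a (47.1 TPM) and Hdac7 (8.83 TPM) with Hdac9 (8.71 TPM). At 6 h the order was Mef2c (296 TPM), Mef2d (85.3), Hdac9 (61.6), Hdac5 (55.9), Mef2a (47.2), Hdac4 (34.6), Hdac7 (10.2) and Mef2b (0). Hdac9 thus moved from rank 6 to rank 3, level with Hdac5, whose libraries met its own at 57.6 TPM. The TPM of Hdac9 rests on the length of its single model.

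The make-up of each family was described by the TPM of its members. The summed TPM of the class IIa HDACs was 69.9 and 69.5 at 0 h, then 75.8 and 90.5 at 2 h, and in the end 153 and 172 at 6 h, and at 6 h was 2.33 times the mean at 0 h. That of the MEF2 factors was 409 and 380, 455 and 348, and 417 and 439 TPM at these times, 1.08 times the 0 h mean at 6 h. MEF2 transcripts thus outnumbered those of class IIa HDACs by 5.85 and 5.47 to 1 at 0 h, 6.00 and 3.84 to 1 at 2 h and 2.73 and 2.56 to 1 at 6 h. These ratios are a description and were not tested. Hdac9 made up 17.1% ± 1.19 of the family at 0 h, 10.6% ± 2.26 at 2 h and 37.9% ± 0.360 at 6 h (SD, n = 2). Hdac5, the largest share at 0 h with 44.7% ± 0.309 and at 2 h with 59.1% ± 5.37, was at 34.5% ± 1.28 at 6 h although its level had risen. The share of Hdac7 went from 14.4% ± 1.24 to 6.35% ± 1.12 and that of Hdac4 from 23.8% ± 0.362 to 21.3% ± 2.04. Among MEF2 factors, Mef2d went from 13.2% ± 0.996 to 19.9% ± 0.800, Mef2a from 13.6% ± 0.0612 to 11.0% ± 0.239 and Mef2c from 73.1% ± 0.959 to 69.1% ± 0.561.

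**Figure D4:**
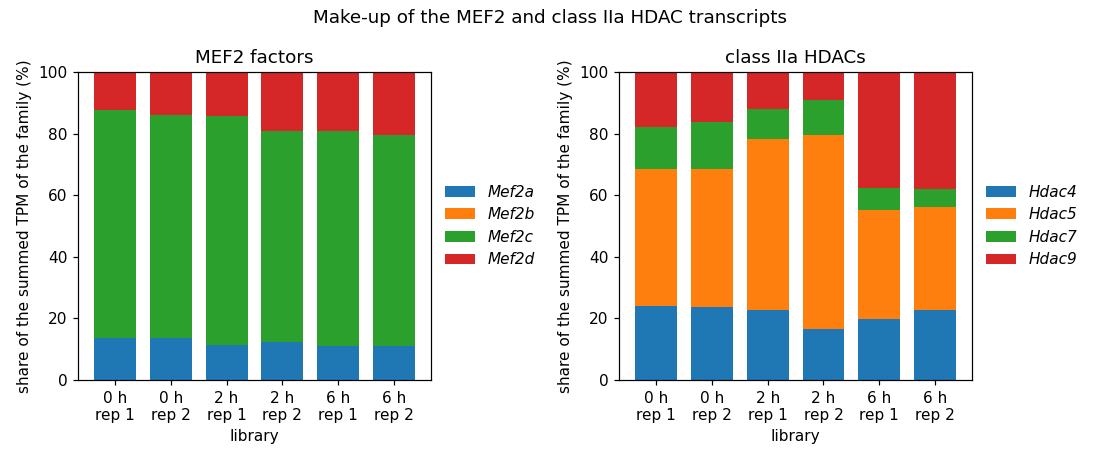
Share of each gene in the summed TPM of its family (vertical axis, percent) in each of the 6 libraries, MEF2 factors left and class IIa HDACs right. Hdac9 takes 37.7% and 38.2% of the class IIa HDAC transcripts at 6 h and at most 18.0% before, and Mef2c takes 68.6% to 74.2% of the MEF2 transcripts in every library.

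The effective length of a gene is the mean length of its transcripts weighted by their abundance, reduced for the fragment lengths of the library. It moves when the mix of transcripts moves. It also differs slightly between libraries without such a move, as the single Hdac9 model of 4413 bases ran from 4100 to 4120. None of the 7 genes was called for effective length at 2 h against 0 h, 6 h against 0 h or 6 h against 2 h (limma, adjusted p at most 0.05 with a log2 ratio of 0.2 or more in either direction), beside 0.0356%, 0.525% and 0.116% of all 11233 genes tested. At an unadjusted p under 0.05 the count was 1, Hdac5 at 6 h against 2 h, with a log2 ratio of 0.14 (SE 0.05, p 0.0486, limma adjusted p 0.406). The share of all genes under this unadjusted p is not given, so the count has no background and is not read as a change. For Hdac9, with its single model, the effective length says nothing of its transcripts.

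The genes around MEF2 and the class IIa HDACs were examined as lists, which overlap in Hdac9 and Sik1. Among 19 kinases that phosphorylate class IIa HDACs or act just upstream, 3 were called higher and 0 lower at 2 h against 0 h, and again at 6 h against 0 h. These were the salt-inducible kinases Sik1, Sik2 and Sik3, which keep class IIa HDACs in the cytoplasm. Beside this count and those of the lists that follow, 3.62% of all genes tested were called higher and 5.94% lower at 2 h, and 9.10% and 10.2% at 6 h. Normalized counts of Sik3 climbed from 1201 and 1166 in the 0 h pair to 2854 and 3119 in the 2 h pair and 6962 and 6687 in the 6 h pair, a log2 fold change of 2.53 at 6 h against 0 h (SE 0.11, DESeq2 adjusted p 6.75e-116). Sik1 was highest at 2 h, at 2368 and 2736 against 432.3 and 434.8 at 0 h, a log2 fold change of 2.56 (adjusted p 4.21e-78). Sik2 was at 1.07 at 2 h and 1.62 at 6 h, but its counts were not whole in any library, so reads were shared. At 2 h it was under 2-fold with library totals as size factors (0.91) and from TPM with limma (0.96). At 6 h, 7 kinases were higher and 3 lower without the fold criterion, beside 23.7% and 21.7% of all genes. The list's median was 0.17 at 2 h and 0.09 at 6 h against 0 h.

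Of the 7 genes for 14-3-3 proteins, 6 were higher at 2 h against 0 h without the fold criterion and 5 at 6 h, beside 12.3% and 23.7% of all genes. None was lower at either time, and the medians were 0.40 and 0.42. In TPM the 2 h libraries of Ywhae, at 1215 and 1427, overlapped with its 0 h libraries, at 1189 and 1218. Those of the other genes higher at 2 h did not overlap. The most abundant ones moved by less than 2-fold, as Ywhaz, by 0.57 at 2 h (adjusted p 2.15e-05) and 0.65 at 6 h (adjusted p 3.31e-07). Sfn alone was called, at 2 h, on a mean of 56.43 normalized counts against 21.61, and in none of the fits that left out 1 library.

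Among 8 phosphatase genes, 0 were called higher and 1 lower at 6 h against 0 h. It was Ppp3cc, a catalytic subunit of calcineurin, at 567.2 and 554.5 normalized counts at 0 h and 176.6 and 143.0 at 6 h (log2 fold change -1.81, SE 0.18, DESeq2 adjusted p 4.69e-22). The calcineurin subunit Ppp3ca was at 0.13 (adjusted p 0.484) and Ppp3cb at 0.40 (adjusted p 0.0254). At 6 h, 5 of the 8 were higher and 1 lower without the fold criterion, beside 23.7% and 21.7% of all genes. The higher ones included Ppp2ca (0.89, adjusted p 1.58e-17) and Ppp2cb (0.81, adjusted p 2.13e-10), catalytic subunits of PP2A. The list's median was 0.29 at 2 h and 0.33 at 6 h.

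Of the 7 other histone deacetylases, 0 were called higher and 1 lower at 6 h against 0 h. Hdac10, a class IIb enzyme, fell from 179.3 and 195.5 to 73.83 and 59.16 normalized counts (log2 fold change -1.50, SE 0.26, DESeq2 adjusted p 1.02e-07). Hdac3, the deacetylase that class IIa HDACs recruit, was at 0.07 (adjusted p 0.626). The median of these 7 was 0.14 at 2 h and -0.16 at 6 h, beside 0.01 and 1.08 for class IIa.

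Among 8 corepressor partners, Bcor, the BCL6 corepressor, was the 1 gene called at 2 h and at 6 h against 0 h. It had 955.2 and 1001 normalized counts at 0 h, then 2110 and 2366 at 2 h, and in the end 3171 and 2919 at 6 h, with log2 fold changes of 1.19 (adjusted p 2.20e-19) and 1.64 (adjusted p 7.72e-37). From TPM with limma it was at 0.95 at 2 h, under the 2-fold criterion. Ncor1, whose protein bridges class IIa HDACs and Hdac3, was at 0.11 at 6 h (adjusted p 0.469). The median was 0.13 at both times.

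Of 18 other regulators and cofactors of MEF2, 1 was called higher at 2 h against 0 h and 2 at 6 h against 0 h, with 0 lower, beside 3.62% and 9.10% of all genes called higher. Srf, a MADS-box factor related to MEF2, was higher at both times, at 1.37 and 1.36 (adjusted p 6.72e-32 and 1.03e-31). Crebbp, a histone acetyltransferase that MEF2 recruits, was at 1.24 at 6 h (adjusted p 1.59e-22). Without the fold criterion 9 were higher and 2 lower at 6 h, beside 23.7% and 21.7% of all genes. The medians were 0.11 at 2 h and 0.24 at 6 h.

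Genes described as MEF2 targets in neurons or muscle had the highest median of the 9 lists at 6 h against 0 h. At 2 h against 0 h their median was close to that of the 14-3-3 genes (0.42 and 0.40). At 6 h against 2 h it was 0.35, under the 0.74 of the class IIa HDACs. This order was not tested. Of the 25 targets, 24 were tested at 2 h. There 8 were called higher and 0 lower at 2 h against 0 h, and 13 higher and 1 lower at 6 h against 0 h, with medians of 0.42 and 1.22. Of all genes tested, 3.62% were called higher and 5.94% lower at 2 h, and 9.10% higher and 10.2% lower at 6 h. Many of them are also targets of other activity-regulated factors, and Hdac9 is in this list. Nr4a1, an orphan nuclear receptor, went from 76.34 and 78.37 normalized counts to 5859 and 7089 after 2 h and 2514 and 2508 after 6 h. Bdnf, a neurotrophin, went from 99.42 and 79.22 to 1707 and 1209 after 2 h and 2580 and 2565 after 6 h. Arc, a postsynaptic regulator of AMPA receptors, had 15.98 and 31.18 counts at 0 h, then 120.8 and 135.4 at 2 h, and in the end 176.6 and 182.8 at 6 h. Homer1, a postsynaptic scaffold, was at a log2 fold change of 2.55 at 2 h and 2.32 at 6 h, with 2 h libraries of 15721 and 8178 counts. Fos, a subunit of AP-1, was the most raised, at 7.71 at 2 h and 6.73 at 6 h. Jun, its partner, was the 1 gene called lower, at -1.28 at 6 h (SE 0.17, adjusted p 2.33e-13), and was at 0.11 at 2 h.

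Of the 24 targets tested in each comparison, 5, Hdac9 among them, were called higher at 6 h against 0 h and against 2 h and not called at 2 h against 0 h, beside 3.33% of 16404 genes. These comparisons share libraries. Kcna1, a potassium channel subunit, was at 2.54 at 6 h against 0 h (SE 0.14, DESeq2 adjusted p 9.70e-70). Unlike Hdac9, at -0.27, it was at 0.44 at 2 h with an adjusted p of 0.0121, under the fold criterion. The protocadherin gene Pcdh17 was at 1.66, Lgi1, a secreted synaptic protein, at 1.22, and Ube3a, a ubiquitin ligase, at 1.23. The adjusted p of Ube3a was 0.0446 and was 0.0573 with TMM factors and 0.150 without the first 0 h library. Nr4a1 and Klf4 were called higher at both times and lower at 6 h against 2 h, by -1.37 and -2.44.

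**Figure D5:**
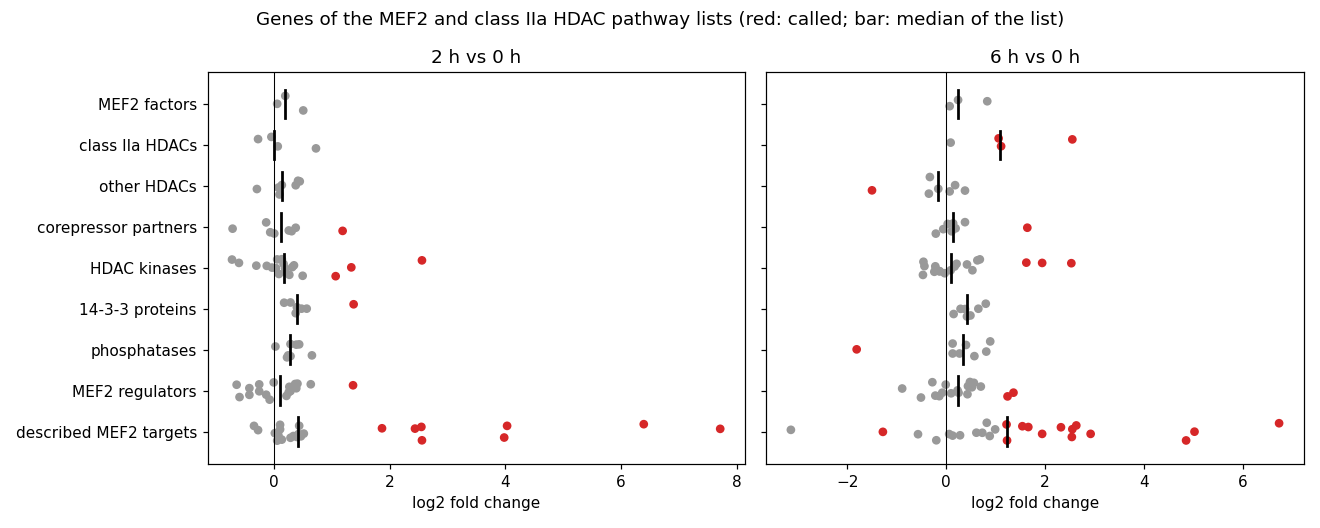
Log2 fold change (horizontal axis) of every gene tested in the 9 lists (vertical axis) at 2 h and at 6 h, each against 0 h. Points are genes, red where called, and bars are list medians. The class IIa HDACs go from a median of 0.01 at 2 h to 1.08 at 6 h, and the described MEF2 targets from 0.42 to 1.22. Both panels share the 0 h libraries.

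For each called gene of the family, the 3 genes with the most similar course over the 6 libraries were named, among 11182 others with a mean of at least 100 normalized counts. Likeness was the root mean square difference of log2(normalized count + 1) after each gene was centred on its own mean. Closest to Hdac4 were Naa25 (0.0413), Lhfp (0.0488) and Mpp6 (0.0489). Closest to Hdac5 were Git1 (0.0240), Nfatc1 (0.0694) and Arhgap23 (0.0724), and Git1 had log2 fold changes of 0.77 at 2 h and 1.06 at 6 h beside 0.73 and 1.06 of Hdac5. Hdac9 had no neighbour as near: Rsph4a (0.142), Jcad (0.153) and Pknox2 (0.160) were the closest, with changes of 2.67, 2.73 and 2.49 at 6 h beside its 2.55. The points share libraries and depth, so these values describe likeness in this set of samples.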

How the data were processed

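The samples were 6 RNA-seq libraries in 3 groups of 2, grouped by the sample titles. Per the labels and the study's methods, reads of poly(A) RNA were mapped to mm10 and quantified with RSEM 1.3.0, and the processing notes also name Bowtie2 2.2.9. The annotation release and the strand setting are not given in the sources used here. The deposited expected counts are not normalized, share multi-mapping reads between genes, and need not be whole. The TPM values deposited by the authors are corrected for length and scaled to 1 total per library. The deposited effective lengths, in bases, are another measure of the same fit. The deposited FPKM and length columns were not used here. Positions and exon overlaps came from GENCODE M21 (GRCm38), which matched 42548 of 43432 genes and may not be the authors' release.

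Expected counts were rounded, and the 22515 genes with a count were fitted in DESeq2 1.42.0 (R 4.3.3) over all 6 libraries with the group as the term, median-of-ratios size factors, a two-sided Wald test, unshrunken fold changes, independent filtering and Benjamini-Hochberg adjustment over the 16840, 17277 and 16404 genes with an adjusted p (2 h and 6 h each against 0 h, and 6 h against 2 h). Called genes had an adjusted p no higher than 0.05 and a fold above 2. Log2 effective length was tested with limma 3.58.1 over genes whose expected counts averaged 100 or more. Alternatives were edgeR 4.0.16's quasi-likelihood test, TMM factors, library totals, a mean count of at least 10, limma on log2(TPM + 1) with a pseudocount of 1, the compared groups alone, a replicate block, a GC correction, both together, and leaving out each library. The scripts were tested on simulated data.

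The 8 genes, the lists and the tests were chosen with earlier results of these data known. Named genes were the 8, the called genes of each list (at most 5 per list and comparison, by size of change, averaging 50 or more normalized counts), Arc, Nr4a1, Bdnf, Jun and Homer1, and the 3 closest patterns per called gene. Pcdh17, Lgi1, Sfn, Ywhaz, Ywhae, Ppp2ca, Ppp2cb, Ppp3ca, Ppp3cb, Hdac3, Ncor1, Tubb3 and Neurod6 were named beside this rule after their values were seen. Intervals cover the fitted error, and counts carry no molecular identifiers.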

Additional observations from a re-analysis of the deposited data

How the results depend on the processing

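Hdac9 was called higher at 6 h against 0 h and against 2 h under every alternative run, and Mef2d, Hdac4 and Hdac5 were higher at 6 h than at 0 h at an adjusted p of at most 0.05 under each. The count of the 8 genes called at 6 h against 0 h was 3, and it was 2 with limma on log2(TPM + 1) and 2 to 3 over fits that left out 1 library (2 without the second 6 h library), Hdac5 being the gene lost in each. Without the fold criterion it was 4, and 5 without either 2 h library, Mef2c being the gene added. The called count was 1 with library totals as size factors, which put the median over genes averaging 10 or more normalized counts at -0.25 at 6 h and -0.16 at 2 h on the log2 scale. That scaling also changed the share of higher genes among all called genes from 47.2% to 28.7% at 6 h against 0 h and from 37.8% to 27.3% at 2 h. Without the fold criterion, the count at 2 h against 0 h was 2, both higher, 1 (Mef2d) with limma on log2(TPM + 1) and 3 with library totals, Hdac9 being lower there. Over fits that each left out 1 library, where a lone library was assumed to vary like the other groups, this count ran from 2 to 4 and that at 6 h against 2 h, 3 in the reported fit, from 2 to 6, with both upper ends reached without a 2 h library. These include genes in the other direction: Mef2a and Hdac9 were lower at 2 h against 0 h without the first 2 h library, and Mef2a and Mef2c were lower at 6 h against 2 h without the second. The replicates of each time point differed along GC content, most at 2 h, and the part of this in these counts was not tested.

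Signs changed for values that did not pass in the reported fit. With library totals, Mef2a was at -0.11 at 2 h and -0.18 at 6 h against 0 h, Hdac7 at -0.09 and -0.16, and at 6 h against 2 h Mef2c was at -0.03 and Hdac7 at -0.07. With limma on log2(TPM + 1), Mef2a was at -0.19 and -0.18, Mef2c at -0.02 at 2 h and Hdac7 at -0.18 at 2 h. With the GC correction Mef2a was at -0.08 at 6 h against 0 h, Mef2c at -0.12 at 6 h against 2 h and Hdac7 at -0.01 at 2 h. Hdac7 at 6 h against 2 h was at -0.01 with edgeR and with TMM factors. Leaving out 1 library, the value at 2 h against 0 h ran from -0.28 to 0.31 for Mef2a, -0.15 to 0.46 for Mef2c, -0.14 to 0.02 for Hdac4 and -0.28 to 0.32 for Hdac7, and at 6 h against 2 h from -0.22 to 0.39 for Mef2c, -0.25 to 0.34 for Mef2a and -0.24 to 0.36 for Hdac7. At 6 h against 2 h, both ends passed for Mef2c (DESeq2 adjusted p 0.00898 and 7.38e-07) and for Mef2a (0.0214 and 0.00120), in opposite directions by which 2 h library was left out. The cause was not tested.

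In the lists, with limma on log2(TPM + 1) the count called was 0 instead of 1 for the other HDACs at 6 h against 2 h, and for the corepressors and the 14-3-3 genes at 2 h against 0 h. Leaving out 1 library moved the counts called for corepressors, MEF2 regulators and 14-3-3 genes at 2 h against 0 h. It also moved those for kinases and MEF2 regulators at 6 h against 2 h. The counts for described MEF2 targets moved in each comparison, with the widest range of any list at 6 h against 2 h. Family shares from expected count over effective length equal those from TPM by construction, so this alternative tests nothing.

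Replicate numbers are shared by the time points, but no shared animal or batch is stated. Deviations of same-numbered libraries correlated at 0.281, -0.002 and 0.152 across genes in the 3 comparisons. With the replicate block the counts of the 8 genes called were 0, 3 and 2, as without it, and the block changed no other call among the 8 genes. With the block and GC correction Mef2a was at -0.08 at 6 h against 0 h and Mef2c at -0.11 at 6 h against 2 h, and Hdac5 at 6 h against 2 h was at 0.53 (DESeq2 adjusted p 1.08e-05). With the 0 h and 6 h libraries alone, Mef2c at 6 h against 0 h was at 0.23 with a DESeq2 adjusted p of 3.09e-04. With library totals it was at -0.00 with a DESeq2 adjusted p of 0.989.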
